A study of Rattus norvegicus with 30 samples.

Results

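Emodin was compared with dexamethasone (DEX) in rat lung at 6 h after the induction of severe acute pancreatitis (SAP). The members were taken from the sample labels alone: the 3 libraries of emodin-treated rats (Emo-6h) and the 3 libraries of DEX-treated rats (DEX-6h), 6 of the 30 libraries of the series. No expression value entered that choice, and all genes past a filter on low counts, 15934 of the 22914 in the count table, were examined. All differences below are Emo-6h minus DEX-6h unless another direction is stated, so a positive log2 fold change means a higher level after emodin.

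The rats were male Sprague Dawley animals, 8 weeks old, fasted before surgery, and each library was made from polyadenylated RNA of lung tissue. In both groups, and in the untreated pancreatitis group (SAP-6h), 5.0% sodium taurocholate at 0.1 mL per 100 g of body weight was run backwards into the biliopancreatic duct, which injures the pancreas and then the lung. DEX-6h rats received dexamethasone at 10 mg/kg into a vein at 2 h and the carboxymethylcellulose vehicle into the stomach. Emo-6h rats received emodin into the stomach at 2 h and saline into a vein; the treatment protocol gives 40 mg/kg and the sample descriptions give 10 mg/kg. Sham-6h rats had the pancreas moved at surgery without an infusion. The 2 treated groups therefore differed in drug, route and dose together, and these cannot be told apart.

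Dexamethasone is a synthetic glucocorticoid: it binds the glucocorticoid receptor, which then moves to the nucleus, raises transcription of genes such as Fkbp5 and Tsc22d3, and restrains transcription driven by NF-kB and AP-1. Emodin is an anthraquinone from rhubarb root that is used in studies of pancreatitis and its lung injury, and no single receptor for it is established. In the lung, glucocorticoids act on epithelium, endothelium and leukocytes alike.

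The libraries held 27378428 to 30368850 reads on genes in Emo-6h and 29465825 to 32834792 in DEX-6h, a difference that did not reach significance (two-sided exact permutation test, p = 0.2, where 3 rats against 3 cannot give less than 0.1). Surfactant and other alveolar type 2 genes reached a summed level of 29143 to 40005 FPKM (fragments per kilobase of transcript, scaled to the size of the library) over the 6 libraries, so the labelled tissue carried its defining markers. Emo-6h replicate 3 stood apart. The summed FPKM of 25 interferon-stimulated genes was 924, 735 and 7138 in the Emo-6h rats and 997, 581 and 733 in the DEX-6h rats, and each of the 25 genes was highest in replicate 3 among the Emo-6h rats. Summed heart muscle genes also varied widely, at 50.0, 154.6 and 18.1 FPKM in Emo-6h and 259.5, 33.8 and 326.5 in DEX-6h. Results are therefore given with and without Emo-6h replicate 3 where it changes them. Nothing in the labels says more about that rat, and why its interferon genes were high was not tested.

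The 2 treatments left the lung in different states for a limited number of genes. At an adjusted p below 0.05 and a change of at least 2-fold, 225 genes differed, which is 1.41% of the genes tested (edgeR quasi-likelihood F-test, with p-values adjusted after Benjamini and Hochberg over all genes tested). Of these, 121 genes (0.759%) were higher and 104 genes (0.653%) were lower in Emo-6h. Those lower in Emo-6h included the enzyme Aspa, which had the lowest adjusted p of all, and the glucocorticoid receptor target Fkbp5. Those higher in Emo-6h included the Notch ligand Dll4, the endothelial factor Sox18, the death ligand Tnfsf10 and cytotoxic granule genes. The 3 rats of each group did not overlap in FPKM for 220 of the 225 genes, against 21.0% of all genes tested. The 225 genes were picked for a difference between these same rats, so this count is a description.

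Without Emo-6h replicate 3, 162 genes were called, 1.00% of 16142 tested. Of the 121 genes called higher, 63 were called again and 58 were not. Of the 104 genes called lower, 46 were called again and 58 were not. Each other library also moved the count: 45 genes were called without DEX-6h replicate 1, 146 without DEX-6h replicate 2, 82 without DEX-6h replicate 3, 126 without Emo-6h replicate 1 and 277 without Emo-6h replicate 2. Of the gene lists described below, those of glucocorticoid receptor targets, cytokines and chemokines, NF-kB genes, interferon-stimulated genes, cytotoxic cells, macrophages, alveolar fluid clearance, hypoxia and the assayed genes each had 0 members called without DEX-6h replicate 1. That fit called 45 genes over all genes tested, so lists of this size can go without a call. In it Sox18 was the 1 endothelial gene called and Plin2 remained called. Ahr was not called there while Tiparp was, and 1 gene of cholesterol synthesis and uptake was called lower. All 225 genes kept their direction in each of the 6 fits that left out a library, and 31 were called in every one of them, 14 higher and 17 lower.

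**Figure D1:**
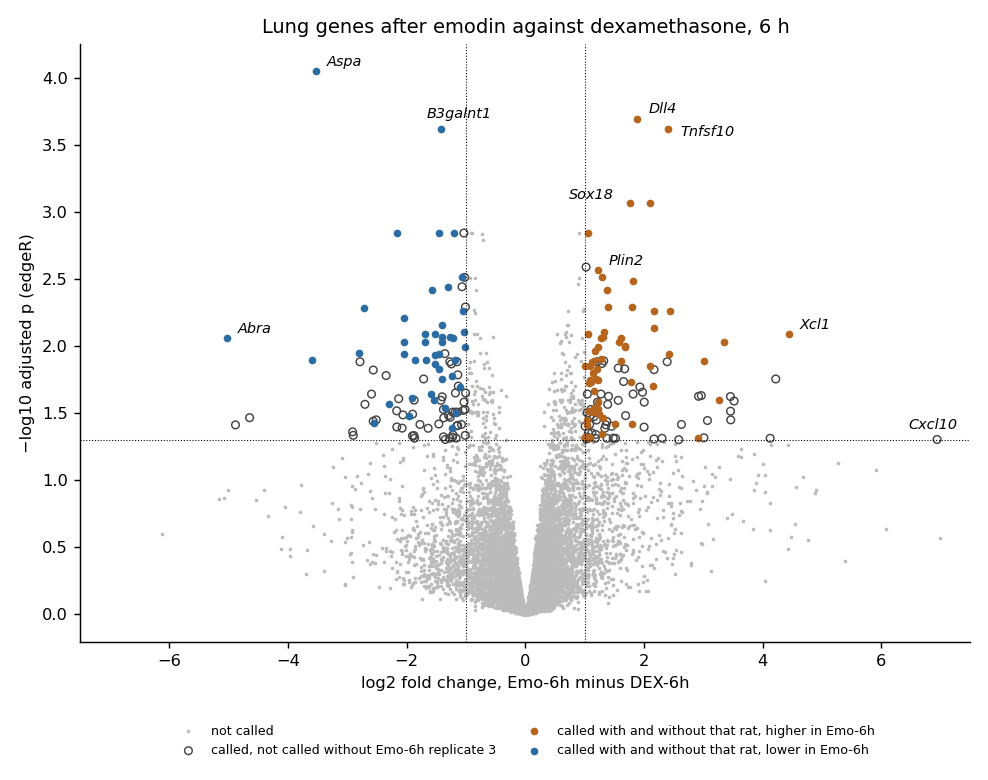
Each point is a gene, placed by its log2 fold change between Emo-6h and DEX-6h (x axis) and by -log10 of its adjusted p from edgeR (y axis), with the thresholds dotted. Filled points are genes called with and without Emo-6h replicate 3 and open circles are the 58 higher and 58 lower genes that were called only with it. Aspa has the lowest adjusted p and Cxcl10, at the far right, sits just above the threshold.

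The clearest difference was in Aspa (ENSRNOG00000019659, chromosome 10), aspartoacylase, which splits N-acetylaspartate into acetate and aspartate. Its level was 2.88, 2.55 and 3.27 FPKM in the 3 Emo-6h rats and 33.7, 35.9 and 30.6 FPKM in the 3 DEX-6h rats. Every Emo-6h rat was far below every DEX-6h rat, and the log2 fold change was -3.53 ± 0.40 (SE, n = 3 rats a group, adjusted p = 8.96e-05). In the untreated SAP-6h rats it was 6.73, 4.51 and 3.29 FPKM, so the level in Emo-6h was near theirs and the DEX-6h level was the one set apart. Against SAP-6h, Aspa rose in DEX-6h by 2.77 on the log2 scale (adjusted p = 0.00293), and the value for Emo-6h was -0.76 (adjusted p = 0.374).

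Other enzymes were among the genes with the lowest adjusted p. In the lists for lipid metabolism, 1 of 17 genes of lipid and ketone fuel use was called higher (Plin2) and 1 lower (Pdk4, not called without Emo-6h replicate 3, adjusted p = 0.0698), and 0 of 16 of cholesterol synthesis and uptake were called, beside 0.759% higher and 0.653% lower over all genes. B3galnt1, which adds the terminal sugar of globoside to glycolipids, was at 9.61, 11.5 and 10.5 FPKM in Emo-6h and 28.1, 25.8 and 30.1 FPKM in DEX-6h (log2 fold change -1.42 ± 0.18, adjusted p = 0.000242). The spread within each group was small beside the gap between them. Sgms1, a sphingomyelin synthase of the Golgi, was at 14.8, 15.3 and 14.6 FPKM against 38.3, 29.9 and 33.9 FPKM (-1.20 ± 0.19, adjusted p = 0.00144). Rdh16, a retinol dehydrogenase, was at 0.55, 0.92 and 0.57 FPKM against 3.33, 2.42 and 3.32 FPKM (-2.16 ± 0.33, adjusted p = 0.00144). These 3 genes were called in every fit that left out a library. Cyp26b1, which degrades retinoic acid, differed in the other direction, at 21.7, 13.9 and 4.44 FPKM in Emo-6h against 1.47, 1.19 and 1.23 FPKM in DEX-6h (3.35 ± 0.67, adjusted p = 0.00933). Its Emo-6h rats varied among themselves, with replicate 3 lowest, yet all of them lay above the DEX-6h rats, and it was called in 4 of the 6 fits that left out a library.

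Further named genes were lower in Emo-6h than in DEX-6h. Ccng1, cyclin G1, was the 1 called lower of 11 p53 target genes tested (beside 0.653% of all genes), whose median was -0.15 with 3 above 0. It was at 11.6, 15.02 and 11.8 FPKM against 29.4, 32.0 and 32.7 FPKM (log2 fold change -1.30 ± 0.23, adjusted p = 0.00362). Rprml was at 14.2, 6.94 and 16.6 FPKM against 51.3, 48.4 and 56.4 FPKM (-2.05 ± 0.42, adjusted p = 0.0115). Both were called in every fit that left out a library. Aqp3, a channel for water and glycerol, was at 45.1, 12.1 and 17.5 FPKM against 142, 169 and 252 FPKM, a larger difference (-2.90 ± 0.79) with a weaker test (adjusted p = 0.0463), and it was called in none of the 6 fits that left out a library. Sphk1, which makes sphingosine 1-phosphate, had a log2 fold change of -2.08 (adjusted p = 0.0409) and was likewise called in none of them. Cytl1, a small secreted protein, was at 41.0, 76.4 and 44.4 FPKM against 274, 290 and 555 FPKM (-2.79 ± 0.59, adjusted p = 0.0131) and had an adjusted p of 0.0526 without Emo-6h replicate 3. Txnip, a thioredoxin inhibitor, and Alas1, the first enzyme of heme synthesis, were also lower, by -1.01 each on the log2 scale (these genes were chosen after their values were seen).

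Among the other genes with the largest differences in that direction was Serpind1, heparin cofactor II. It was at 1.05, 1.18 and 0.65 FPKM against 5.79, 6.51 and 4.53 FPKM (log2 fold change -2.56 ± 0.56, adjusted p = 0.0151). Dmbt1, a mucosal scavenger protein, was at -2.35 (adjusted p = 0.0166), Doc2b, a calcium sensor of exocytosis, at -2.17 (adjusted p = 0.0304) and Cyp2c22, a cytochrome P450, at -2.70 (adjusted p = 0.0272), and none of these 4 was called without Emo-6h replicate 3, where the log2 fold changes were -2.36, -2.30, -2.14 and -3.02. Over all 6 fits that left out a library they were called in 3, 2, 1 and 0. Got1, the cytosolic aspartate aminotransferase, was at 29.9, 24.6 and 27.5 FPKM against 66.97, 55.9 and 47.9 FPKM (-1.07 ± 0.18, adjusted p = 0.00308) and was called without that rat too. Cdc37l1, a co-chaperone of HSP90, was at -1.04 (adjusted p = 0.00144) and fell short of 2-fold without it (-0.92).

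2 of the most changed genes came with uneven levels inside DEX-6h. Abra, an actin-binding protein of striated muscle, was at 0.02, 0.20 and 0.16 FPKM in Emo-6h and 9.56, 0.88 and 2.36 FPKM in DEX-6h (-5.03 ± 1.00, adjusted p = 0.00878). Without DEX-6h replicate 1, its highest rat, Abra was at -3.61 and not called, and it was called in the other 5 fits that left out a library. All 9 heart muscle genes tested had a log2 fold change below 0, with a median of -1.76 and none called, beside 1.41% of all genes. Their summed level, given above, was lowest in Emo-6h replicate 3 and highest in DEX-6h replicate 3. The part of heart tissue in the Abra difference was not tested. Gp2, a membrane glycoprotein of secretory granules, was at 0.05, 2.47 and 0.42 FPKM against 30.3, 3.36 and 54.2 FPKM (-4.88 ± 1.28, adjusted p = 0.0387), and in SAP-6h it ranged from 2.07 to 39.8 FPKM. Gp2 was called in 2 of the 6 fits that left out a library and not without Emo-6h replicate 3 (adjusted p = 0.145). Rats of the same group thus differed widely in this gene.

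Fkbp5, Errfi1 and Pdk4 were the glucocorticoid receptor targets called lower in Emo-6h than in DEX-6h. Of 26 gene identifiers tested for 24 listed symbols, 25 had a log2 fold change below 0, with a median of -0.74 beside 0.01 over all genes, and 3 were called lower and 0 higher, beside 0.653% and 0.759% of all genes. Fkbp5 (ENSRNOG00000022523, chromosome 20), the co-chaperone that dampens receptor signalling, was at 57.2, 58.1 and 75.0 FPKM in Emo-6h and 216, 167 and 208 FPKM in DEX-6h. No rats overlapped, and the log2 fold change was -1.64 ± 0.44 (adjusted p = 0.041). Errfi1, an inhibitor of the EGF receptor, differed by -1.42 (adjusted p = 0.0254) and Pdk4, a kinase that turns off pyruvate dehydrogenase, by -1.38 (adjusted p = 0.0297). Pdk4 was at 20.9, 19.3 and 22.5 FPKM against 49.3, 41.6 and 73.1 FPKM. Against SAP-6h, Fkbp5, Errfi1 and Pdk4 were at 1.28, 1.23 and 1.15 in DEX-6h (adjusted p = 0.176, 0.0871 and 0.114). In Emo-6h they were at -0.36, -0.20 and -0.23 against SAP-6h (adjusted p = 0.736, 0.828 and 0.791).

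Many well known targets did not pass. Sgk1, a kinase that sustains sodium channels, had an adjusted p of 0.0311 but less than a 2-fold difference (-0.81). The 2 gene identifiers for Tsc22d3, which encodes the leucine zipper protein GILZ, were at -0.72 (adjusted p = 0.0793) and -0.44 (adjusted p = 0.448). Dusp1, a phosphatase of MAP kinases, was at -0.57 (adjusted p = 0.452), Zbtb16 at -0.59 (adjusted p = 0.496), Klf9 at -0.45 (adjusted p = 0.361) and the clock gene Per1 at -0.11 (adjusted p = 0.808). Without Emo-6h replicate 3 the median of the list was -0.79 and 0 members were called, and Fkbp5 had a log2 fold change of -1.79 with an adjusted p of 0.0789. Fkbp5 and Errfi1 were called in none of the 6 fits that left out a library, although the range for Fkbp5 was only -1.79 to -1.56. Nr3c1, the glucocorticoid receptor gene, was not called for either of its identifiers (0.15 and 0.30).

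**Figure D2:**
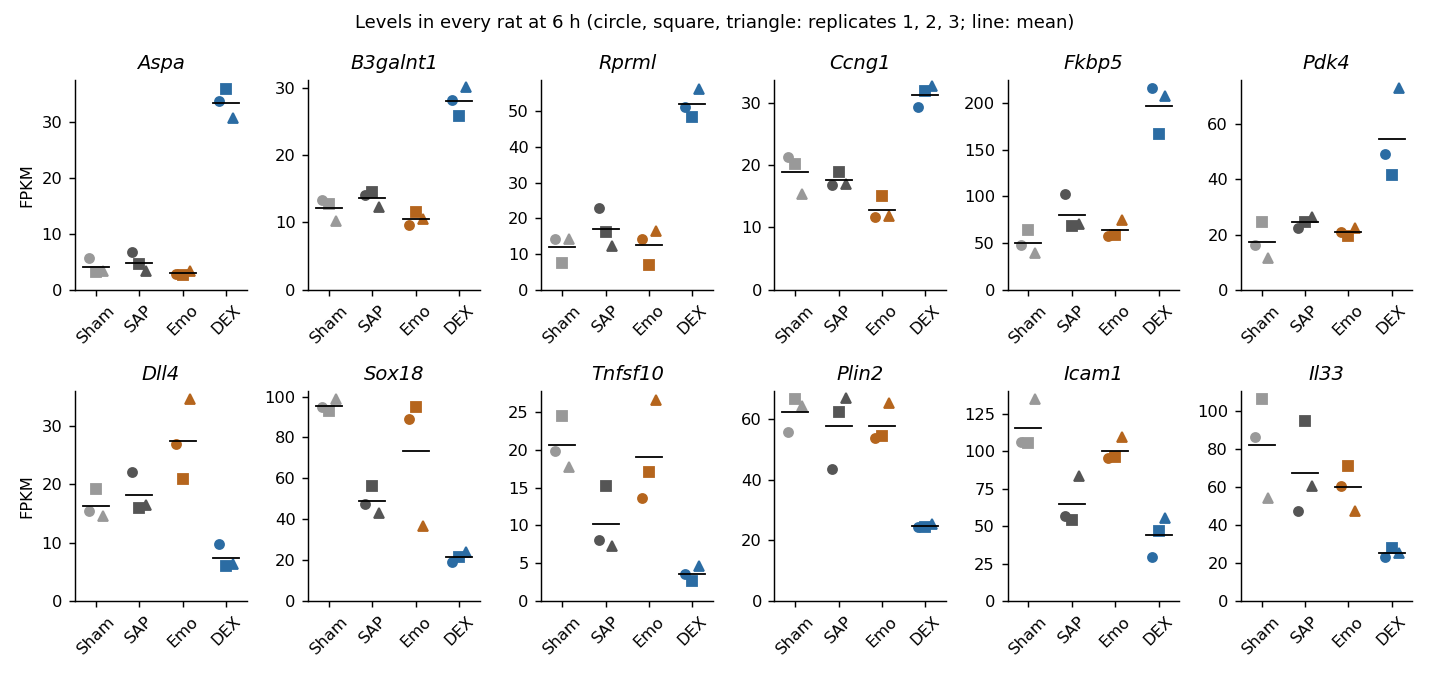
FPKM of 12 genes in each rat of Sham-6h, SAP-6h, Emo-6h and DEX-6h, with circles, squares and triangles for replicates 1, 2 and 3, a line at the mean, and a linear axis from 0. In the upper panels the DEX-6h rats lie above all others, with Aspa at 30.6 to 35.9 FPKM, and in the lower panels they lie below all others, with Plin2 at 24.3 to 25.5 FPKM, except for Icam1, where they overlap the SAP-6h rats.

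Vascular genes were among those higher in Emo-6h. Dll4 (ENSRNOG00000014011, chromosome 3), a Notch ligand that endothelial tip cells make, was at 27.0, 20.9 and 34.6 FPKM in Emo-6h and 9.74, 6.03 and 6.42 FPKM in DEX-6h. The groups did not overlap, the log2 fold change was 1.89 ± 0.23 (adjusted p = 0.000202), and the gene was called in every fit that left out a library. Sox18, a transcription factor of blood and lymph vessels, was at 88.9, 94.8 and 36.9 FPKM against 19.1, 21.7 and 23.9 FPKM (1.76 ± 0.25, adjusted p = 0.00086). Here Emo-6h replicate 3 was the lowest of its group, and without it the log2 fold change was 2.07 (adjusted p = 5.63e-06). Plxnd1, a semaphorin receptor of endothelium, differed by 1.81 (adjusted p = 0.00328) and Pdgfb, the growth factor that recruits pericytes, by 1.23 (adjusted p = 0.0102), both named after their values were seen. Elk3, an ETS factor of vessels, was at 27.9, 31.5 and 18.7 FPKM against 10.99, 12.4 and 14.1 FPKM (1.06 ± 0.16, adjusted p = 0.00144), and was called in 3 of the 6 fits that left out a library, with a range of 0.92 to 1.23.

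Of 16 endothelial marker genes tested, 3 were called higher and 0 lower, beside 0.759% and 0.653% of all genes, with a median of 0.31, and without Emo-6h replicate 3 the counts were 5 and 0 with a median of 0.48. The called members were Sox18, Car4 (1.77, adjusted p = 0.0184), the carbonic anhydrase of lung capillaries, and Eng (1.04, adjusted p = 0.0315), a co-receptor for TGF-beta. Car4 was called in 2 of the 6 fits that left out a library. Eng was called in 1 of them, and not without Emo-6h replicate 3 (0.93, adjusted p = 0.114), where Sox18, Car4, Kdr, Plvap and Aplnr, the apelin receptor, were called. Kdr, the main VEGF receptor, was at 0.98 (adjusted p = 0.0228) and Plvap, which forms diaphragms of fenestrae, at 0.95 (adjusted p = 0.0253), both short of 2-fold. The other members ranged from Aplnr at 1.35 (adjusted p = 0.057) and Cdh5 at 0.62 (adjusted p = 0.0663) through Vwf at 0.04 to Flt1 at -0.72 (adjusted p = 0.254). The summed level of the list was 2689 to 3766 FPKM in Emo-6h and 2364 to 2616 FPKM in DEX-6h, so the groups did not overlap. In lung tissue of mixed cells, fewer cells of a type and less RNA per cell cannot be told apart. Nrp1, a co-receptor for VEGF and semaphorins, was at 13.5, 18.2 and 12.5 FPKM against 5.69, 6.26 and 8.02 FPKM (1.14 ± 0.25, adjusted p = 0.016).

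Tnfsf10, Xcl1 and genes of a cytotoxic and natural killer cell list were among those higher in Emo-6h. Neither Tnfsf10 nor Xcl1 is a member of that list. Tnfsf10, which encodes the death ligand TRAIL, was at 13.6, 17.04 and 26.6 FPKM against 3.54, 2.71 and 4.59 FPKM (log2 fold change 2.40 ± 0.31, adjusted p = 0.000242), and Xcl1, a chemokine of activated natural killer and CD8 T cells, was at 1.80, 2.65 and 11.2 FPKM against 0.58, 0.06 and 0.05 FPKM (4.44 ± 0.86, adjusted p = 0.00814). Both were called in every fit that left out a library, with Tnfsf10 at 2.07 (adjusted p = 0.0016) and Xcl1 at 3.19 (adjusted p = 0.0418) without Emo-6h replicate 3. Xcl1 rested on 11, 1 and 1 reads in the DEX-6h rats and ranged up to 6.397 without DEX-6h replicate 1. Of 13 cytotoxic and natural killer cell genes tested, all 13 had a log2 fold change above 0 and 3 were called higher, beside 0.759% of all genes: the granzymes Gzma (4.22, adjusted p = 0.0176) and Gzmm (3.52, adjusted p = 0.0257) and the pore protein Prf1 (2.30, adjusted p = 0.0487). Gzma was at 16.97, 12.9 and 118 FPKM against 3.02, 3.44 and 1.44 FPKM. The groups did not overlap with or without Emo-6h replicate 3, which held the highest value.

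Leaving out that rat lowered the list's median from 2.21 to 0.76 and left 0 members called, with Gzma at 2.47 (adjusted p = 0.144) and Prf1 at 1.58 (adjusted p = 0.257). The summed level of the list was 149, 112 and 549 FPKM in Emo-6h and 52.0, 63.0 and 40.6 FPKM in DEX-6h, so both other Emo-6h rats also exceeded all DEX-6h rats. None of the 23 T cell genes tested was called, with a median of 0.45 that became 0.06 without replicate 3. None of the 15 B cell and plasma cell genes was called (median 0.03). Over all genes tested 1.41% were called, a share at which lists of this size can go without a call.

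At 6 h, each of the interferon-stimulated genes was higher in Emo-6h replicate 3 than in the other Emo-6h rats. All 25 genes of the list had a log2 fold change above 0, with a median of 2.31, and 3 were called higher, beside 0.759% of all genes: Irf1 (1.29, adjusted p = 0.0135), Gbp5 (2.96, adjusted p = 0.0234) and Gbp2 (3.07, adjusted p = 0.0359). Without Emo-6h replicate 3 the median was 0.16 and 0 were called. Irf1, at 51.5, 43.1 and 91.8 FPKM in Emo-6h and 26.5, 24.3 and 25.4 FPKM in DEX-6h, did not overlap between the groups with or without that rat, and was then at 0.88 (adjusted p = 0.0973). In that rat the level of a list gene was 1.94 to 98.7 times the mean of the other Emo-6h rats, with a median of 12.5 times. Mx1, a GTPase that blocks viruses, was at 3.69, 2.73 and 317 FPKM in Emo-6h and 4.99, 1.57 and 1.87 FPKM in DEX-6h, which was not called (adjusted p = 0.0749). Cxcl10, a chemokine that draws T cells, was at 1.95, 1.00 and 268 FPKM against 0.42, 0.84 and 0.97 FPKM, and its log2 fold change of 6.94 ± 1.92 (adjusted p = 0.0497) became 0.97 (adjusted p = 0.814) without that rat. Cmpk2, a mitochondrial nucleotide kinase, and XAF1, an inhibitor of the caspase blocker XIAP, behaved alike, from 3.46 to 0.84 and from 3.01 to 0.66.

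**Figure D3:**
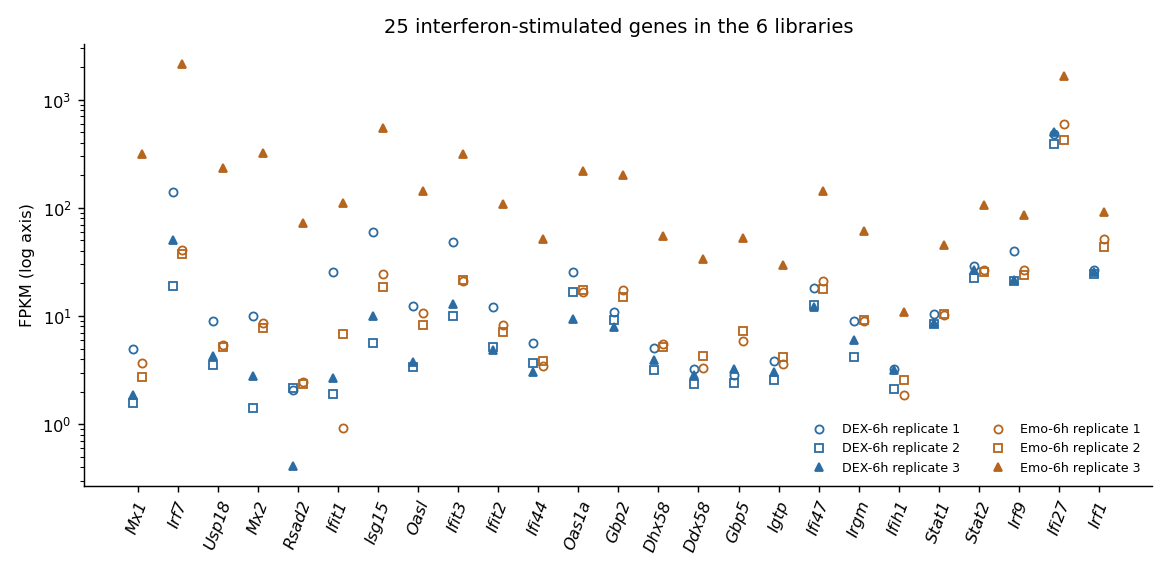
FPKM of the 25 interferon-stimulated genes (log axis) in the 3 DEX-6h rats (blue) and the 3 Emo-6h rats (brown), ordered by the ratio of Emo-6h replicate 3 to the mean of the other Emo-6h rats, from 98.7 at the left to 1.94 at the right. The filled brown triangle, Emo-6h replicate 3, is the highest Emo-6h rat for every gene, as for Mx1 at 317 FPKM beside 3.69 and 2.73 FPKM.

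The sequences before the gene starts were not used in the comparison. RefSeq promoters (assembly GRCr8) were searched in the 250 bases before each gene start, on both strands, for 4 short motifs: the core of the interferon-stimulated response element, GAAANNGAA, an NF-kB motif, GGANNTTCC, the palindrome core of the glucocorticoid receptor, ACANNNTGT, and its half-site, AGAACA. The spellings were chosen after the values were seen and are looser than a full binding site. A single promoter was found for 81 of the 121 genes called higher and for 64 of the 104 called lower. The response element core was present in 15 of the 81 (18.5%), in 3 of the 64 (4.69%), in 6.51% of the promoters of genes tested and in 7.99% of all 24206 promoters. Among the 15 were Cxcl10, Gbp2, Gbp4, Gbp5, the cytokine Il15, Serpinb9, Gzma, Tnfsf10 and the antigen processing genes Psmb10 and Tapbp. In the interferon-stimulated list, 11 of 17 promoters held it (64.7%). The share was smaller without Emo-6h replicate 3: of the genes called higher both with and without that rat, 3 of 40 promoters held it (7.5%), those of Cyp26b1, Ncf1 and Tnfsf10, and of those called lower 1 of 29. The NF-kB motif was present in 7 of the 81 (8.64%), including those of Icam1, Cxcl10 and Gbp5, in 0 of the 64, in 3.80% of the promoters of genes tested and in 3.29% of all promoters. Among genes called with and without that rat it was in 3 of 40 (7.5%), those of Icam1, Elk3 and Vash1, and in 0 of 29. The palindrome core was present in 8 of the 64 (12.5%), in 3 of the 81 (3.70%), in 3.45% of the promoters of genes tested and in 5.55% of all promoters. The 8 were Apold1, Cldn10, Clec4a2, Pank1, Pllp, Rab17, Tmem252 and Trim54, and in the list of glucocorticoid receptor targets only 1 of 18 promoters held it, that of Map3k6. Among genes called with and without Emo-6h replicate 3 it was in 4 of 29 lower (13.8%) and 1 of 40 higher (2.50%). The half-site was present in 7 of the 64 (10.9%), in 9 of the 81 (11.1%), in 10.9% of the promoters of genes tested, in 0 of 18 of the glucocorticoid receptor targets and in 16.7% of all promoters. A match is a description of the letters in the window and says nothing about binding.

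The promoters of Cxcl10, Gbp5 and Gbp2 are shown because their genes were called higher (though not without Emo-6h replicate 3) and carry these motifs, and that of Pank1, pantothenate kinase 1, because it had the lowest adjusted p among the 8 genes called lower with the palindrome core. Each is the 250 bases before the gene start in GRCr8, read 5′ to 3′ on the strand of the gene. Capitals mark the response element and NF-kB matches in the first 3 and the palindrome core in Pank1. They lie at chr14:15988816-15989065, chr2:233910749-233910998 and chr2:234005477-234005726 on the plus strand and at chr1:241806464-241806713 on the minus strand.
Cxcl10: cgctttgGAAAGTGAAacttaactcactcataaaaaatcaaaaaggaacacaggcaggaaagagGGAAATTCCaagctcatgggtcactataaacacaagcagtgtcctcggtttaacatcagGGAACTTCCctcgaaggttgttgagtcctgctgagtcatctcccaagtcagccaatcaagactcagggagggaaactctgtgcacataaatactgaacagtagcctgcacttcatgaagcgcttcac
Gbp5: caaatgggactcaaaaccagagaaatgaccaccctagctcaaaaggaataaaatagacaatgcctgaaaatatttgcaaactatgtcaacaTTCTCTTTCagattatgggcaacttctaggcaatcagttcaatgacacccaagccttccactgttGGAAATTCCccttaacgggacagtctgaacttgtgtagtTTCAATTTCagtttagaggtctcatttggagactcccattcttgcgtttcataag
Gbp2: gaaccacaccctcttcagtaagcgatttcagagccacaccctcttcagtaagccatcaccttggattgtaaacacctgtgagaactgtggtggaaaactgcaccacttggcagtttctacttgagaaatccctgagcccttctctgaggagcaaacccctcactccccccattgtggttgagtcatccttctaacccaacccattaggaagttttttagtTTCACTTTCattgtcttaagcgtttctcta
Pank1: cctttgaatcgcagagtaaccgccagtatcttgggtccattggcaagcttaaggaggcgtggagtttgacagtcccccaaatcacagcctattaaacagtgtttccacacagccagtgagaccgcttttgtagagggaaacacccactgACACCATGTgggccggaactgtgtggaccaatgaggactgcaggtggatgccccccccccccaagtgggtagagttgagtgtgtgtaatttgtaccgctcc

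In Cxcl10 the response element core began 243 bases before the gene start and NF-kB matches began 186 and 127 bases before it. In Gbp5 the response element core began 159 and 55 bases and the NF-kB match 94 bases before the start. In Gbp2 the response element core began 30 bases before the start and the NF-kB motif was not in the window. In Pank1, the first enzyme of coenzyme A synthesis, the palindrome core began 101 bases before the start. Pank1 was at 1.58, 1.51 and 1.23 FPKM in Emo-6h and 2.67, 2.48 and 3.64 FPKM in DEX-6h (log2 fold change -1.02 ± 0.17, adjusted p = 0.00308), with no overlap, and was below the 2-fold threshold without Emo-6h replicate 3 (-0.94, adjusted p = 0.0155). Gbp genes form a family of close copies, and since reads that mapped to several places were discarded by the authors, their levels rest on the reads that tell the copies apart and are uncertain.

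Of 25 cytokine and chemokine genes tested, 23 were above 0, with a median of 1.02, and 2 were called higher, Cxcl10 and Il33, and 0 lower, beside 0.759% and 0.653% of all genes. Without Emo-6h replicate 3 the median was 0.73 and 1 was called, Il33, which kept its call in none of the other 5 fits that left out a library. Il33, an alarmin held in the nuclei of epithelial and endothelial cells, was at 60.8, 71.0 and 47.7 FPKM against 22.9, 27.9 and 25.5 FPKM (log2 fold change 1.22 ± 0.30, adjusted p = 0.0262). The groups did not overlap, and in SAP-6h the gene was at 47.5 to 94.6 FPKM. Il1a, an alarmin cytokine, was at -1.71 with an adjusted p of 0.0544 and Csf2, the growth factor GM-CSF, at -1.10 with 0.121, the pair that lay below 0. Ccl2, a chemokine for monocytes, was at 3.85 with an adjusted p of 0.0636, Il1b at 1.64 with 0.217 and Cxcl1, a chemokine for neutrophils, at 1.02 with 0.387. Il6 was at 2.16 with an adjusted p of 0.454 and at -0.25 without Emo-6h replicate 3, at levels of 0 to 1.03 FPKM. Tnf was not analysed here.

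Icam1 (ENSRNOG00000020679, chromosome 8), the adhesion molecule that leukocytes grip on endothelium and epithelium, was at 95.7, 96.3 and 109 FPKM in Emo-6h and 29.2, 46.7 and 55.5 FPKM in DEX-6h. The log2 fold change was 1.20 ± 0.26 (adjusted p = 0.0148), and 1.12 (adjusted p = 0.0441) without Emo-6h replicate 3. Of 17 genes of NF-kB feedback and effectors tested, 2 were called higher (beside 0.759% of all genes), Icam1 and the inhibitor Nfkbie (1.21, adjusted p = 0.0131), and 0 lower, with a median of 0.22. The summed level of the list ran the other way, at 648 to 806 FPKM in Emo-6h and 885 to 988 FPKM in DEX-6h, without overlap. Nfkbia, the inhibitor that glucocorticoids also raise, lay on the other side at -0.92 (adjusted p = 0.15). Without Emo-6h replicate 3, 1 was called and the median was 0.06. Sele, an endothelial selectin, was at 2.94 but not called (adjusted p = 0.164), at 0.01 to 0.92 FPKM.

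Of 19 macrophage and monocyte genes tested, 2 were called higher (beside 0.759% of all genes), Cx3cr1 (2.00, adjusted p = 0.0262), the fractalkine receptor, and Fcgr1a (1.38, adjusted p = 0.0487), an IgG receptor, with a median of 0.93. Without Emo-6h replicate 3 neither was called (1.71, adjusted p = 0.0982 for Cx3cr1 and 0.99, adjusted p = 0.246 for Fcgr1a) and the median was 0.37. The 1 member called then was Vsig4, a complement receptor of resident macrophages, at 3.03 (adjusted p = 0.0386), which that rat held at 0.15 FPKM beside 11.6 and 16.04 FPKM in the other Emo-6h rats. The defining lineage sums overlapped between the groups, at 13931 to 17885 FPKM in Emo-6h and 12419 to 20783 FPKM in DEX-6h. Cx3cr1 was at 2.68, 2.57 and 4.28 FPKM against 0.92, 0.80 and 0.63 FPKM. Tril, a Toll-like receptor accessory protein, was at 7.94, 8.10 and 4.93 FPKM against 0.98, 1.77 and 2.16 FPKM (2.09 ± 0.30, adjusted p = 0.00086) and was called in every fit that left out a library. Irf5, a transcription factor of macrophage activation named after its values were seen, was at 12.7, 10.7 and 21.7 FPKM in Emo-6h (1.61, adjusted p = 0.00878) and was called in all of them too. Among other leukocyte genes with large differences, Fcnb, a ficolin of myeloid cells, was at 163.3, 189.9 and 332.1 FPKM against 51.5, 37.9 and 23.6 FPKM (2.58 ± 0.72, adjusted p = 0.0499), and Cd180, a Toll-like receptor relative of B cells and macrophages, was at 2.39 (adjusted p = 0.0131). Neither was called without Emo-6h replicate 3, with Fcnb at 2.19 (adjusted p = 0.161) and Cd180 at 1.43 (adjusted p = 0.115), and Fcnb was called in none of the 6 fits that left out a library. Gimap1, a GTPase of lymphocytes, was at 1.02 (adjusted p = 0.00258), and at 0.96 without that rat. None of 17 neutrophil genes tested was called (median -0.30).

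Some metabolic and xenobiotic genes also differed. Plin2, the coat of lipid droplets, was at 53.7, 54.5 and 65.5 FPKM in Emo-6h and 24.4, 24.3 and 25.5 FPKM in DEX-6h, with no overlap (log2 fold change 1.22 ± 0.20, adjusted p = 0.00273). In SAP-6h it was at 43.7 to 67.2 FPKM, and its log2 fold change there was -1.22 for DEX-6h (adjusted p = 0.00589) and 0.00 for Emo-6h (adjusted p = 0.998). Of 8 genes of the aryl hydrocarbon receptor pathway tested, 1 was called higher and 1 lower, beside 0.759% and 0.653% of all genes. Ahr, the aryl hydrocarbon receptor, was higher in Emo-6h (1.06, adjusted p = 0.00807, called in 2 of the 6 fits that left out a library) and Tiparp, its feedback repressor, was lower (-1.01, adjusted p = 0.0102), while its targets Cyp1a1 (-2.00, adjusted p = 0.286) and Cyp1b1 (-0.60, adjusted p = 0.41) were not called. Bnip3, a mitophagy receptor of the hypoxia list, was at 27.6, 25.02 and 25.5 FPKM against 84.3, 64.8 and 56.4 FPKM (-1.41 ± 0.28, adjusted p = 0.0086). It was the 1 called lower of 16 hypoxia and glycolysis genes tested, beside 0.653% of all genes, and no other was called. Slc26a9, an epithelial chloride transporter, was the single called gene of 11 for alveolar fluid clearance (-1.08, adjusted p = 0.0384), beside 0.653% of all genes called lower. It was not called without Emo-6h replicate 3 (adjusted p = 0.146).

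Of the epithelial marker genes, 0 of 12 alveolar type 2, 0 of 9 alveolar type 1, 0 of 11 ciliated and 0 of 10 club cell and mucin genes passed, beside 1.41% of all genes. At that share lists of this size can go without a call. Their medians were -0.05, 0.19, -0.50 and -0.81. Of the ciliated genes 10 of 11 and of the club cell and mucin genes 9 of 10 lay below 0, beside 7739 of all 15934. Without Emo-6h replicate 3, 2 ciliated and 3 club cell and mucin genes lay above 0, with medians of -0.42 and -0.60. Their summed levels overlapped between the groups. The ciliated sums were 437.7 to 821.6 FPKM in Emo-6h and 523.7 to 791.2 FPKM in DEX-6h. The club cell and mucin sums were 25396 to 38726 FPKM and 26342 to 42239 FPKM. Nkx2-1, a transcription factor of lung epithelium, had an adjusted p of 0.0355 at 0.68, short of 2-fold. The circadian clock (0 of 19, median -0.15), the NRF2 response (0 of 15, median 0.24), heat shock chaperones (0 of 12, median -0.01) and proliferation (0 of 17, median 0.42) gave no call either, beside the same 1.41% of all genes. Of the clock genes, Arntl was at -1.49 (adjusted p = 0.114), Dbp at 1.01 (adjusted p = 0.426) and Nr1d1 at 1.05 (adjusted p = 0.512). With Emo-6h replicate 3 left out, the medians of these 4 lists were -0.12, 0.14, -0.26 and 0.09. Then 1 member was called, Osgin1 of the NRF2 list (1.02, adjusted p = 0.0201), beside 1.00% of all genes. At an unadjusted p below 0.05 there were 1598 genes higher and 1163 lower over all genes tested, and DESeq2 called 389 genes in all, so a list without a call here is not shown to be equal between the treatments. All 16 mesenchyme and matrix genes lay above 0 with a median of 0.50 and 0 called, Pdgfrb, the pericyte receptor for PDGF-B, having an adjusted p of 0.016 at 0.77. With that rat left out the median was 0.51 and 1 member was called higher, Tbx2 (1.01, adjusted p = 0.0269). Their summed level was 2411 to 2806 FPKM in Emo-6h and 1594 to 2104 FPKM in DEX-6h.

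**Figure D4:**
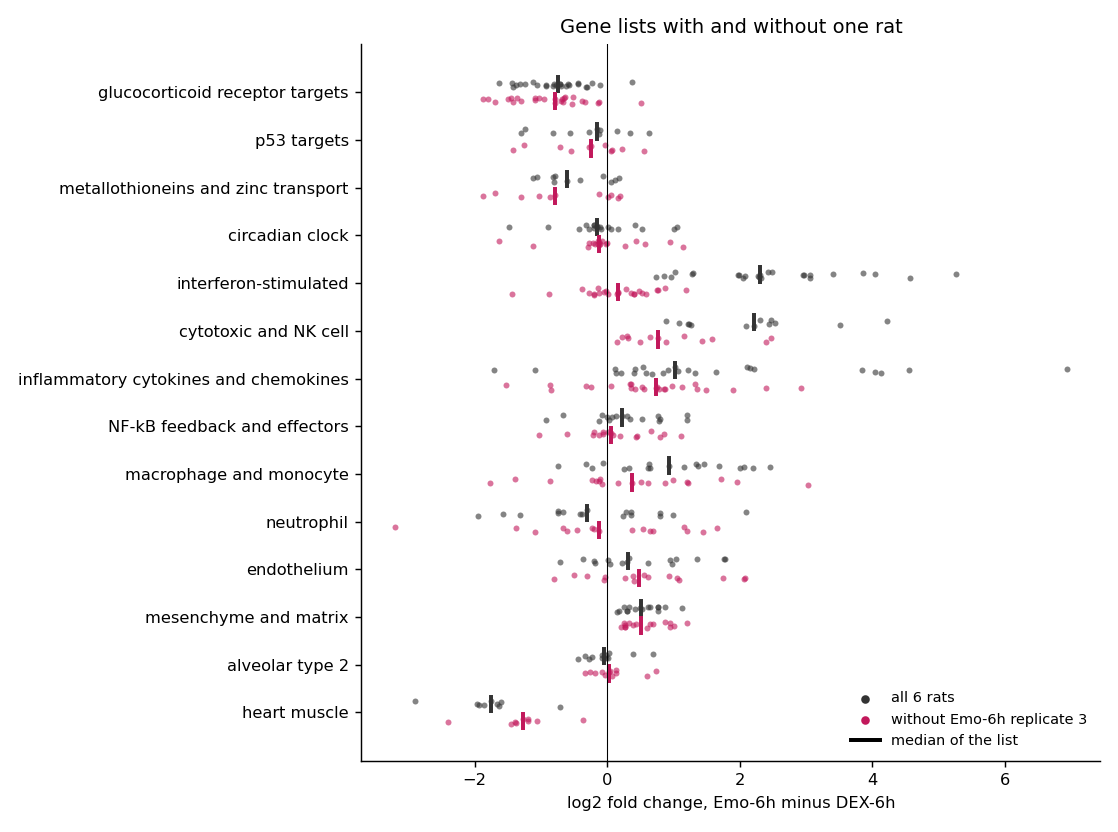
Log2 fold changes, Emo-6h minus DEX-6h, of the tested genes of 14 lists (points) with the median of each list (bar), from all 6 rats in grey and without Emo-6h replicate 3 in pink. The interferon-stimulated median moves from 2.31 to 0.16 and the cytotoxic median from 2.21 to 0.76, whereas the median of glucocorticoid receptor targets stays at -0.74 and -0.79.

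Long noncoding RNAs gave 4 calls among 380 tested (1.05%), a share no higher than the 1.41% of all genes. AABR07032348.2 (ENSRNOG00000059170, chromosome 18), an intergenic RNA, was at 0.17, 0.44 and 0.13 FPKM in Emo-6h and 1.91, 1.20 and 1.78 FPKM in DEX-6h (log2 fold change -2.72 ± 0.49, adjusted p = 0.00525), with no overlap and a call in every fit that left out a library. Here SAP-6h, at 2.22, 2.11 and 1.81 FPKM, resembled DEX-6h. Against SAP-6h the value was -3.06 for Emo-6h (adjusted p = 0.0327) and -0.34 for DEX-6h (adjusted p = 0.887). The other called intergenic RNAs were AC111287.1 (3.27, adjusted p = 0.0254), AABR07049695.3 (-1.18, adjusted p = 0.0311) and AABR07050652.1 (-2.56, adjusted p = 0.0363), all at low levels. A processed pseudogene named Rps28 on chromosome 16 was also called (-1.25, adjusted p = 0.0136), while the protein-coding Rps28 on chromosome 7 was at -0.12 (adjusted p = 0.664), and the levels of such near-identical copies are uncertain because reads that mapped to several places were discarded.

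Of 17 genes that the study assayed by other means, 2 were called higher here and 0 lower, beside 0.759% and 0.653% of all genes. They were Nrp1, given above, and Serpinb9, an inhibitor of granzyme B, at 18.4, 19.1 and 48.1 FPKM against 10.1, 12.2 and 10.1 FPKM (log2 fold change 1.40 ± 0.33, adjusted p = 0.0237). Those genes were selected on these same samples, so their counts are not independent evidence. Serpinb9 fell to 0.78 (adjusted p = 0.209) without Emo-6h replicate 3. Tbx2, a lung mesenchyme factor, was at 0.77 (adjusted p = 0.0797) and at 1.01 (adjusted p = 0.0269) without that rat, and Socs2, a feedback inhibitor of growth hormone signalling, was at -1.14 (adjusted p = 0.0585). Cdkn1a, the p21 inhibitor of cyclin-dependent kinases, was at 135, 88.0 and 152 FPKM against 362, 243 and 278 FPKM, with no overlap, but was not called (-1.24, adjusted p = 0.148). Of the other assayed coding genes, Cxcl12 was at 0.78, Fgfr4 at 0.41, Serpina1 at 0.26, Susd2 at -0.19, Cebpb at -0.29, Sema7a at -0.52 and Maff at -0.63, with adjusted p of 0.181 to 0.884. Of the 5 long noncoding RNAs among the assayed genes, none was called with all rats: Rn60_20_0066.11 was at 1.52 (adjusted p = 0.0904), Rn60_7_1164.1 at 1.28 (adjusted p = 0.0693), AABR07062477.2 at 0.96 (adjusted p = 0.307), AABR07051639.1 at 0.67 (adjusted p = 0.774) and AABR07051642.1 at 0.43 (adjusted p = 0.844). Among the assayed genes there were 3 calls without Emo-6h replicate 3, Nrp1, Tbx2 and Rn60_20_0066.11 (1.91, adjusted p = 0.0358), beside 1.00% of all genes called in that fit.

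The untreated SAP-6h rats placed the differences. Relative to them, 82 genes (0.515%) were called in DEX-6h and 4 genes (0.0251%) in Emo-6h. These comparisons share the SAP-6h rats and so are given side by side. Neither was refitted with a library left out, so how far these counts rest on single rats was not tested. Among the 121 genes higher in Emo-6h than in DEX-6h, the median log2 fold change against SAP-6h was -0.94 for DEX-6h and 0.48 for Emo-6h. All DEX-6h rats lay below all SAP-6h rats for 101 of these genes, beside 8.74% of all genes tested, and all Emo-6h rats lay above all SAP-6h rats for 33, beside 11.4%. Among the 104 genes lower in Emo-6h the medians were 1.06 for DEX-6h and -0.37 for Emo-6h. All DEX-6h rats lay above all SAP-6h rats for 80 of them, beside 8.75% of all genes, and all Emo-6h rats lay below for 28, beside 6.48%. The genes were picked for a difference that includes the DEX-6h and Emo-6h values, so these counts are a description. Those called against SAP-6h in DEX-6h numbered 25 of the 121 and 26 of the 104, and in Emo-6h 0 and 2. Tnfsf10 was at 8.12, 15.2 and 7.26 FPKM in SAP-6h, and its log2 fold change against them was -1.50 for DEX-6h (adjusted p = 0.017) and 0.90 for Emo-6h (adjusted p = 0.23), where the rats overlapped.

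The same contrast at 24 h used other rats, which had received a second dose at 12 h. There 807 genes (5.06%) were called (386 without Emo-24h replicate 2, 427 without Emo-24h replicate 1, 409 without DEX-24h replicate 3 and 506 without DEX-24h replicate 2), 609 (3.82%) higher and 198 (1.24%) lower in Emo-24h than in DEX-24h. Of the 121 genes higher at 6 h, 117 had the same direction at 24 h and 63 were called in it. Of the 104 genes lower at 6 h, 86 had the same direction and 35 were called in it. None was called in the opposite direction, and over all genes tested 50.8% were above 0 at 24 h. The median log2 fold change of the higher genes was 1.37 at 6 h and 1.16 at 24 h, and that of the lower genes -1.42 and -0.79. Aspa was at -2.19 at 24 h (adjusted p = 0.00109), Dll4 at 1.31 (adjusted p = 0.00112), Fkbp5 at -2.19 (adjusted p = 0.00332) and Tnfsf10 at 2.78 (adjusted p = 3.87e-05). The interferon-stimulated genes, of which 0 were called at 6 h without Emo-6h replicate 3, summed to higher levels in all Emo-24h rats, at 1083 to 2903 FPKM against 308 to 545 FPKM in DEX-24h. Of the 25 genes 13 were called higher at 24 h and 0 lower, with a median of 2.71, among them Gbp5 at 2.98 (adjusted p = 0.00899) and Irf1 at 1.24 (adjusted p = 0.00651). Some genes were not called at 24 h: Sox18 was at 0.45 (adjusted p = 0.302), Sorbs2, an actin adaptor, at -0.36 (adjusted p = 0.375) and Icam1 at 0.39 (adjusted p = 0.431). The difference between the times was tested directly, and 9 genes (0.0565%) passed in a test of 24 h against 6 h, a count that ranged from 1 to 21 when single libraries were left out. None of the genes called at 6 h was among them, so none is shown to be particular to 6 h.

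**Figure D5:**
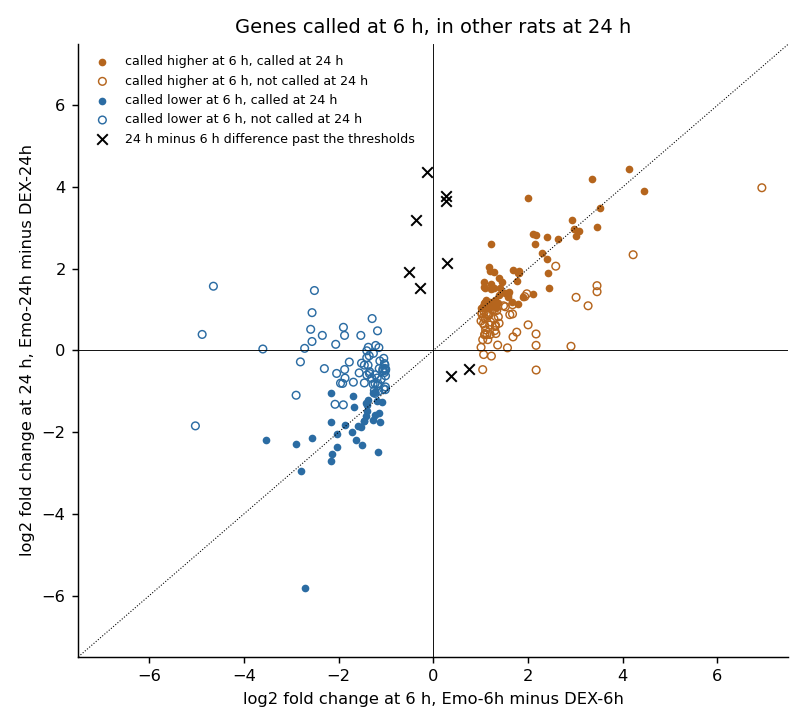
Log2 fold change of emodin against DEX at 6 h (x axis) and at 24 h (y axis) for the 121 genes higher (brown) and the 104 genes lower (blue) at 6 h, filled where the gene was also called at 24 h, with a dotted line of equality. Most points share their sign at both times, 117 and 86 genes, and the 9 crosses are the genes whose difference between the times passed the test.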

How the data were processed

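RNA was isolated from lung tissue of 30 rats, 3 in each of 10 groups, and sequenced as directional poly(A) libraries. Per the submitters' processing notes and the study's methods, bcl2fastq, TopHat2 and edgeR were used with rat Ensembl v6 annotation, and reads that mapped to several places were discarded. The counting program is not given in the sources used here, nor is the use of strand for genes other than long noncoding RNAs, for which the methods describe FPKM recalculated without antisense reads. The authors deposited read counts for 22914 genes, not normalized, and FPKM for 22907 genes, one column per library.

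Groups were taken from the sample labels. Counts were fitted with edgeR 4.0.16 (glmQLFit and glmQLFTest, R 4.3.3) over all 30 libraries with one term per group and 20 residual degrees of freedom, after filterByExpr (minimum count 10, minimum total 15) and TMM scaling. P-values were adjusted by the Benjamini-Hochberg method over 15934 genes. Calls required a change of at least 2-fold beside an adjusted p below 0.05. The SE of a log2 fold change was taken as its size divided by the square root of the F statistic. FPKM values show levels and entered no main test. The p-values measure the spread between these rats only. Differences in total reads were compared by a two-sided exact permutation test. Depth was 27378428 to 32834792 reads on genes in the 6 libraries compared. Tested on simulated data with 15739 genes for this comparison, the method called 15 of 66 genes changed 2-fold, 52 of 67 changed 3-fold and 55 of 66 changed 4-fold, and 3 genes that were not changed. The simulated rats of a group shared a common mean for each gene, with no outlying rat like Emo-6h replicate 3. These counts may therefore not carry over to the real libraries.

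Named genes were the 12 with the largest change in each direction and the 6 with the lowest adjusted p in each direction, among called genes with a mean of at least 1 FPKM and no overlap, the called members of 41 gene lists, a set of glucocorticoid, cytokine, clock and assayed genes, and up to 4 noncoding RNAs in each direction with a mean of at least 0.5 FPKM. Uncalled list members and any other gene named outside these rules were chosen after their values were seen. Results for a few genes are not reported here. Members and lists were chosen with earlier results of these data known. The 6 h and 24 h contrasts and their difference were refitted with RLE scaling, DESeq2 1.42.0, a replicate block, only the compared libraries and each library left out in turn, and the 6 h contrast also with limma 3.58.1 on log2(FPKM + 1) and log2(FPKM + 0.1), other filters and the 15 libraries at 6 h. Promoters were taken from RefSeq (GRCr8) for symbols with a single entry.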

Additional observations from a re-analysis of the deposited data

Results flagged for a closer look

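For 9 genes the difference between emodin and DEX at 24 h was not the same as at 6 h in a test of that difference, an interaction term in the edgeR fit over all 30 libraries with Benjamini-Hochberg adjustment, with 3 rats in each of the 4 groups. In 7 of them the 24 h difference was the higher one. Postn, periostin, a matrix protein of fibroblasts, had a log2 fold change of 0.26 at 6 h and 3.64 at 24 h, a difference of 3.388 (adjusted p = 0.0209). Its mean was 70.8 FPKM in Emo-6h, 59.3 FPKM in DEX-6h, 49.2 FPKM in Emo-24h and 3.70 FPKM in DEX-24h, so DEX-24h was the group set apart. Apln, apelin, a peptide made by endothelium, went from -0.37 to 3.18 (difference 3.546, adjusted p = 0.0307), at 65.2, 83.4, 10.4 and 1.09 FPKM in the same order of groups.

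Leukocyte genes were among the others. Ccr7, the chemokine receptor that guides T cells and dendritic cells to lymph nodes, went from 0.26 to 3.78 (difference 3.518, adjusted p = 0.0307), Bank1, a B cell scaffold, from 0.30 to 2.13 (difference 1.837, adjusted p = 0.0437), and Art2b, an ADP-ribosyltransferase of rat T cells, from -0.13 to 4.37 (difference 4.508, adjusted p = 0.0209). Art2b rested on 3 to 4 reads in the DEX-24h rats. Abca8a, a lipid transporter, went from -0.28 to 1.53 (difference 1.805, adjusted p = 0.00782), and Lrrc4 from -0.51 to 1.93 (difference 2.441, adjusted p = 0.0307). Slc1a4, an amino acid transporter, moved the other way, from 0.75 to -0.46 (difference -1.215, adjusted p = 0.0448). None of the 9 was called at 6 h.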

How the results depend on the processing

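The count of 225 genes at 6 h (121 higher, 104 lower) depended on the fit. It was 89 (37 higher, 52 lower) with only the compared libraries, 115 (48 and 67) under limma on log2(FPKM + 1), 389 (232 and 157) under DESeq2, 459 at an adjusted p alone and 833 at an unadjusted p with 2-fold, and 45 to 277 when single libraries were left out. It was 206 under RLE scaling, 193 with no filter, 210 with a stricter filter, 213 with the 15 libraries at 6 h and 172 under limma on log2(FPKM + 0.1). It was also 196 and 194 without SAP-6h library 2 or 3, alternatives chosen after seeing the data. With a replicate block it was 195, of which 186 were among the 225. Rats with the same number did not deviate together (r = -0.0562, -0.198 and -0.231), so the numbers do not pair the rats.

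The 24 h count ranged from 386 to 892 when single libraries were left out, and was 758 with the replicate block and 987 under DESeq2. The count of 9 genes for 24 h against 6 h was 4 with the replicate block, 1 with only the compared libraries, 96 under DESeq2 and 1 to 21 without single libraries. Genes named but not called turned direction in these cases: Il6 ranged from -0.25 (without Emo-6h replicate 3) to 2.85, Serpina1 from -0.21 (without Emo-6h replicate 1) to 0.49, Susd2 from -0.59 to 0.18 (without DEX-6h replicate 3) and was 0.001 under limma on log2(FPKM + 0.1), and Cxcl2 from -0.061 (without DEX-6h replicate 3) to 0.59. The cause was not tested. On simulated data, 25 of 66 2-fold changes passed the adjusted p and 15 passed with the fold threshold.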

Other observations

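Further genes called in every fit that left out a library, chosen after their values were seen, fall outside the lists above. Mfsd2a, a lysophospholipid transporter of endothelium and epithelium, was at 0.77, 1.17 and 0.84 FPKM in Emo-6h and 2.63, 1.98 and 3.38 FPKM in DEX-6h (log2 fold change -1.52 ± 0.29, adjusted p = 0.00807). Slc25a15, the mitochondrial ornithine carrier, was at 17.3, 11.3 and 14.3 FPKM against 77.4, 52.6 and 46.0 FPKM (-2.04 ± 0.38, adjusted p = 0.00618), and in SAP-6h it reached 52.3 FPKM in 1 rat and 20.7 and 24.6 FPKM in the others. Gjb5, a gap junction protein of epithelium, was at 0.38, 0.66 and 0.33 FPKM against 1.43, 1.70 and 2.56 FPKM (-2.04 ± 0.41, adjusted p = 0.00932). On the other side, Slc15a3, a peptide and histidine transporter of lysosomes in macrophages, was at 24.2, 23.0 and 41.3 FPKM against 10.5, 12.2 and 10.98 FPKM (1.39 ± 0.25, adjusted p = 0.00512). Ptpro, a receptor phosphatase, was at 3.16, 3.76 and 6.97 FPKM against 1.44, 1.33 and 1.23 FPKM (1.79 ± 0.32, adjusted p = 0.00512).

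Ncf1, a cytosolic subunit of the phagocyte NADPH oxidase, also chosen after its values were seen, was higher in Emo-6h, at 37.7, 38.3 and 28.3 FPKM against 13.9, 20.9 and 14.4 FPKM (log2 fold change 1.07 ± 0.27, adjusted p = 0.0304). It stayed called without Emo-6h replicate 3, at 1.19 (adjusted p = 0.0345). Bcl2l1, which encodes the survival protein BCL-XL, was lower in Emo-6h, at 49.9, 52.9 and 78.2 FPKM against 184.5, 138.8 and 172.9 FPKM (-1.46 ± 0.32, adjusted p = 0.0148), and in SAP-6h it was at 35.1 to 59.2 FPKM. Ramp3, a subunit of adrenomedullin receptors, was at 45.04, 26.0 and 103.9 FPKM against 241.0, 212.6 and 180.1 FPKM (-1.86 ± 0.39, adjusted p = 0.0127) and at -2.59 (adjusted p = 0.00174) without Emo-6h replicate 3. The antigen processing genes Psmb10 and Tapbp were called higher only with that rat, at 197.4 and 262.6 FPKM in it beside 73.3 to 93.2 and 53.8 to 65.2 FPKM in the other Emo-6h rats.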
